A study of Mus musculus with 23 samples.

Results

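The genes described here are the ligands and receptors of the GM-CSF and M-CSF systems, chosen by name: the receptor genes Csf2rb, Csf2rb2, Csf2ra and Csf1r and the ligand genes Csf1, Csf2 and Il34. All 7 were found among the 26869 gene rows, and all 7 were kept for testing. They were measured by bulk RNA-seq of poly(A) RNA in 23 subcutaneous tumors grown from MC38, a mouse colon cancer cell line of C57BL/6 origin. The hosts were female F1 mice, 8 to 12 weeks old, from crosses of C57BL/6J with 6 Collaborative Cross strains, which are recombinant inbred strains derived from 8 founder strains. In the study's text 3 crosses are responders to PD-1 blockade (R): CC001F1 from CC001/UncJ, CC002F1 from CC002/UncJ and CC075F1 from CC075/UncJ. The other 3 are non-responders (NR): CC036F1 from CC036/UncJ, CC079F1 from CC079/TauUncJ and CC080F1 from CC080/TauUncJ. Every host received MC38 cells under the skin and, at a tumor size of 75 to 110 mm3, a single intraperitoneal dose of 200 µg of antibody, and the tumor was taken after 48 hours. The antibody was either the isotype control 2A3 (isotype) or the anti-PD-1 antibody 29F.1A12 (aPD1). There were 6 R isotype, 6 R aPD1, 6 NR isotype and 5 NR aPD1 tumors, with 2 tumors for each line and antibody except CC080F1 with aPD1, which had 1. Each line is a single genotype, so the class of the host rests on 3 lines against 3, and a tumor holds MC38 cells and host cells together.

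GM-CSF (granulocyte-macrophage colony-stimulating factor, encoded by Csf2) is a cytokine made by activated lymphocytes and other cells. It binds a receptor whose alpha chain (Csf2ra) sets the specificity and whose beta common chain (Csf2rb) signals through JAK2 and STAT5. The beta common chain also serves the IL-3 and IL-5 receptors. Mice carry a second, closely related gene, Csf2rb2, whose product pairs with the IL-3 receptor alone. M-CSF (encoded by Csf1) and IL-34 (encoded by Il34) are separate ligands of 1 receptor tyrosine kinase, encoded by Csf1r, on which most tissue and tumor macrophages depend for survival.

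In the GENCODE annotation of GRCm38, the beta chain genes lie next to each other on chromosome 15 in opposite orientation. Csf2rb spans 78325752 to 78353847 on the plus strand and Csf2rb2 spans 78282507 to 78305721 on the minus strand.

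The sequences of the beta chain genes are shown because their similarity limits how well short reads can be assigned to one or the other. Each has 13 coding exons. Of 2628 aligned coding bases 2503 were identical (95.2%), and the longest identical run was 242 bases. Of the 2589 windows of 100 bases, the read length, in the Csf2rb coding sequence, 286 (11%) occurred exactly in the full annotated transcripts of Csf2rb2. With up to 3 mismatches, 1212 (46.8%) occurred there. The most alike coding exon was the twelfth, with 1 differing base in 104. It lies at chr15:78347374-78347477 on the plus strand in Csf2rb and at chr15:78285980-78286083 on the minus strand in Csf2rb2, and differing bases are in capitals.
Csf2rb, coding exon 12: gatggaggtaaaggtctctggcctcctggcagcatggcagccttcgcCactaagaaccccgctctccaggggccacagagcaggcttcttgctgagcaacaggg
Csf2rb2, coding exon 12: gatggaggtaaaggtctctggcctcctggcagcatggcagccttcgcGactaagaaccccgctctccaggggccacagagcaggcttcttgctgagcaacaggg

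Among the coding exons of 100 to 300 bases the least alike was the third, with 22 differing bases in 188. It lies at chr15:78338802-78338989 on the plus strand in Csf2rb and at chr15:78294342-78294529 on the minus strand in Csf2rb2. Reads from this exon carry many differences, again in capitals.
Csf2rb, coding exon 3: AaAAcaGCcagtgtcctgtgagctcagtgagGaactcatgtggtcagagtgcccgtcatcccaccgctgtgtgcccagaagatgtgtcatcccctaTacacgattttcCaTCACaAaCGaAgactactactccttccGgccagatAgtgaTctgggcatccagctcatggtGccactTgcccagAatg
Csf2rb2, coding exon 3: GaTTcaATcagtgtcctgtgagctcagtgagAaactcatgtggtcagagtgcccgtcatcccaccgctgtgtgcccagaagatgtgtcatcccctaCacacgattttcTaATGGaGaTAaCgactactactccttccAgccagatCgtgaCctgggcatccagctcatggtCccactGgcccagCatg

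**Figure D1:**
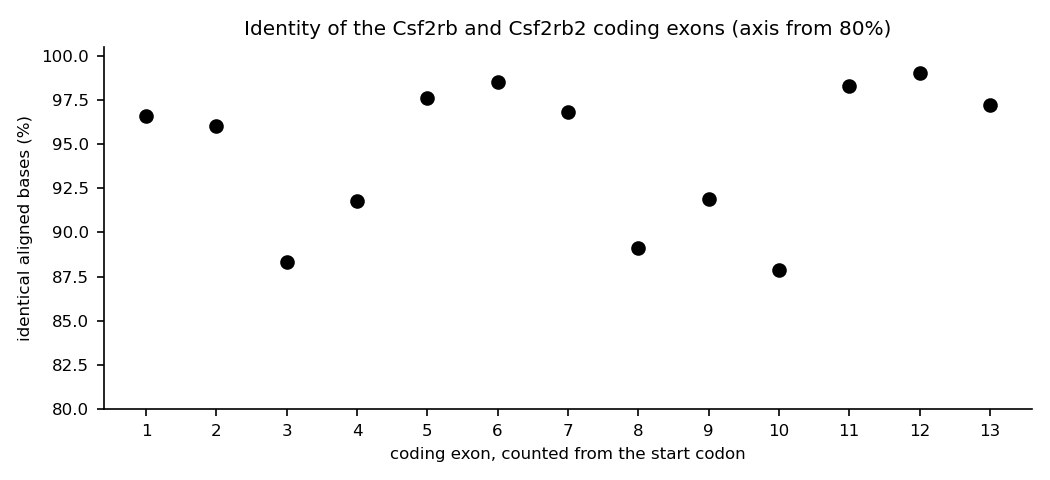
Identity of the Csf2rb and Csf2rb2 coding exons: the horizontal axis is the coding exon counted from the start codon and the vertical axis, drawn from 80%, is the share of aligned bases that are identical. Identity ran from 87.9% in exon 10 to 99.0% in exon 12, and the long last exon was 97.2% identical.

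Library totals ran from 14494014 to 71868253 reads (median 42327589), and 6 libraries (2 R, 4 NR) with totals of at most 18354585 stood apart from the other 17. All values below are counts scaled for library size (normalized counts). Shisal2b, taken as the marker of MC38 cells, was detected in every tumor (460 to 1138). B cell markers (Cd79a and Ms4a1, summed normalized count of at least 100) were present in 3 tumors, and skeletal muscle transcripts (Ckm of at least 500) in 4. Those with B cell markers were CC002F1 isotype tumor 1, CC079F1 aPD1 tumor 1 and the CC080F1 aPD1 tumor. Those with muscle transcripts were CC001F1 isotype tumor 1, CC001F1 aPD1 tumor 1, CC075F1 aPD1 tumor 1 and CC080F1 isotype tumor 2. With either set of tumors left out, the number of members that passed the test was the same in the comparisons of host class and of antibody. It changed from 4 to 2 in the comparison of all 6 lines when the tumors with B cell markers were left out.

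The other members are on separate chromosomes of GRCm38. Csf2ra is on chromosome 19 (61223957 to 61228429, minus), Csf1r on chromosome 18 (61100598 to 61132149, plus) and Csf1 on chromosome 3 (107741048 to 107760469, minus). Csf2 is on chromosome 11 (54247271 to 54249667, minus) and Il34 on chromosome 8 (110741829 to 110805924, minus).

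The ligands of CSF1R were abundant in all 23 tumors, and GM-CSF transcripts were close to absent. Genes were compared in level only per kilobase of exon. On that scale Csf1 was highest, at 3090 ± 372 normalized counts per kb (SD, n = 23). Its receptor Csf1r followed at 1641 ± 377 and its second ligand Il34 at 961 ± 102. The GM-CSF receptor genes were lower, with Csf2ra at 382 ± 116 and Csf2rb at 210 ± 67.7, and Csf2rb2 was at 193 ± 89.7. Csf2 was at 6.98 ± 6.24 per kb, so that Csf1 was 442-fold above it.

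Csf2 counts were too low for firm statements in single tumors. The raw count was between 0 and 26 in each tumor. In the R isotype tumors the normalized count ran from 0 to 5.37 with a median of 1.96, and in the R aPD1 tumors from 2.57 to 15.1 with a median of 10.5. In the NR isotype tumors it ran from 0 to 8.69 (median 5.83) and in the NR aPD1 tumors from 0 to 13.9 (median 1.87). Within CC002F1 both isotype tumors were at 0 counts and the aPD1 tumors at 26 and 22 counts. In CC036F1 all 4 tumors had Csf2, with 4 and 9 counts under isotype and 19 and 23 under aPD1, whereas in CC079F1 only 1 of 4 tumors had any, with 2 counts.

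**Figure D2:**
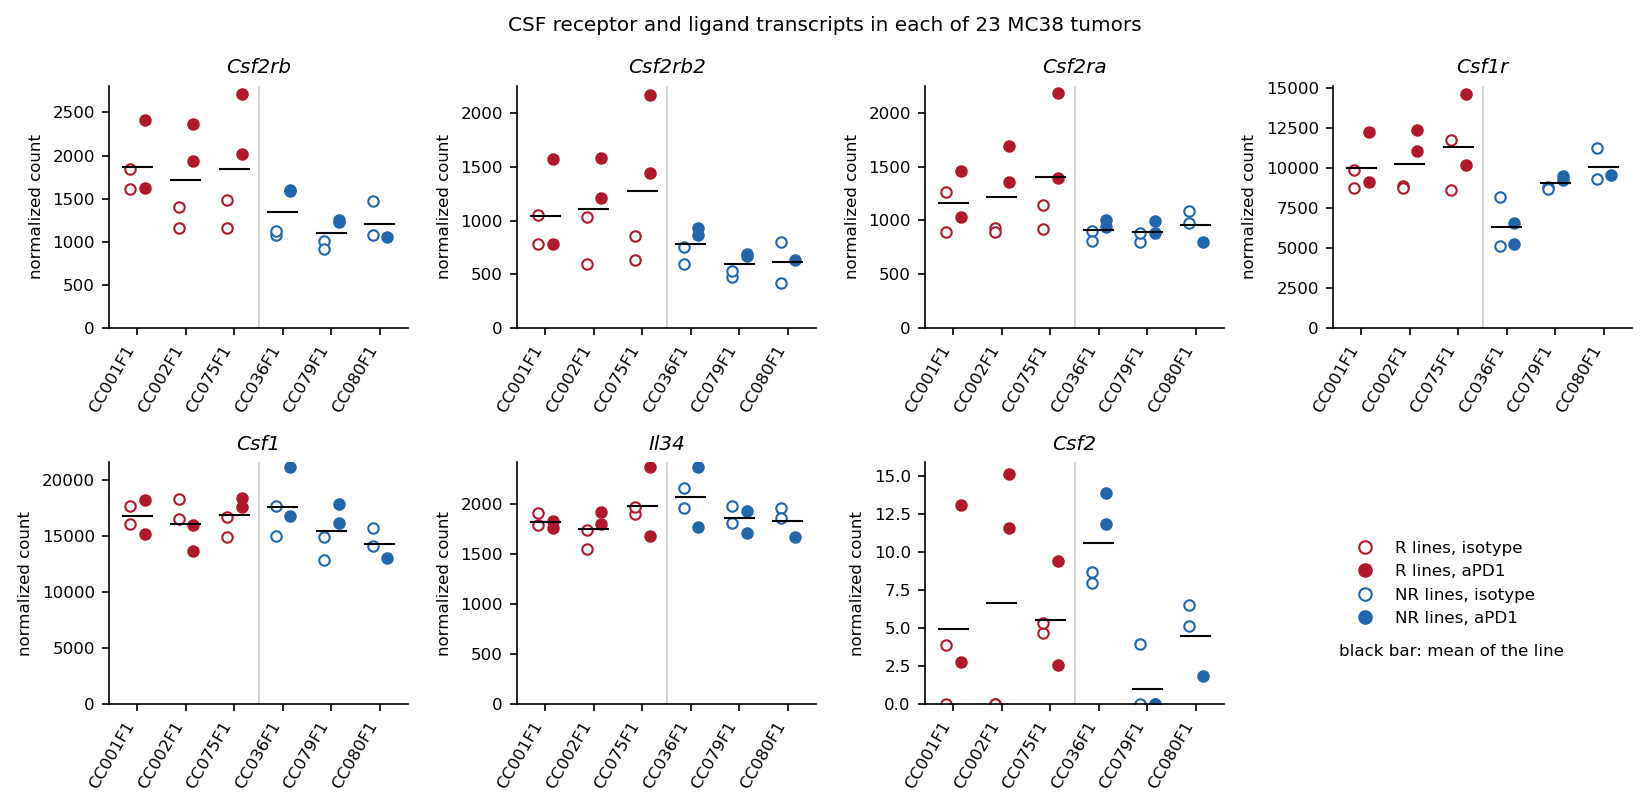
Normalized count of each gene in each of the 23 tumors, by host line, with a panel for each gene and vertical axes that start at 0. Red points are tumors of R lines and blue points tumors of NR lines, open for isotype and filled for aPD1, and the black bar is the line mean. Csf2rb, Csf2rb2 and Csf2ra had line means that were higher in every R line than in any NR line, Csf1r was lowest in CC036F1, and Csf1 and Il34 lay at similar heights throughout.

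The first comparison was between R and NR hosts over all tumors. All 4 receptor genes were higher in R tumors by DESeq2 (Csf1r not by edgeR) and none of the 3 ligands was called. Csf2rb was 1.44-fold and Csf2rb2 1.62-fold higher in R than in NR tumors, Csf2ra was 1.34-fold higher and Csf1r 1.25-fold higher. In bulk tumor RNA, more cells of a type and more RNA per cell cannot be told apart.

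Csf2rb, the signaling chain, ran from 1154 to 2717 in the 12 R tumors and from 916 to 1600 in the 11 NR tumors, so the ranges overlapped. The log2 difference was 0.53 ± 0.11 (SE, adjusted p = 3.87e-05 with DESeq2 and 0.00226 with edgeR). Csf2rb2 ran from 591 to 2165 in R and from 417 to 926 in NR tumors, a log2 difference of 0.69 ± 0.15 (adjusted p = 0.000116 with DESeq2 and 0.00456 with edgeR). Csf2ra ran from 891 to 2179 in R and from 796 to 1086 in NR tumors, a narrow range in the non-responder hosts. The classes differed by 0.42 ± 0.11 (adjusted p = 0.00328 with DESeq2 and 0.0160 with edgeR).

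Csf1r ran from 8621 to 14653 in R and from 5154 to 11234 in NR tumors. The log2 difference was 0.33 ± 0.12 (adjusted p = 0.0390 with DESeq2), and the adjusted p was 0.0789 with edgeR. Without the CC036F1 line it fell to 0.13 and was no longer called. Of the 29 fits that left out a tumor or a line, 13 lost the Csf1r call.

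By DESeq2, 4 of the 7 genes were called, all higher, where 14.4% of all genes tested were called and 7.66% were called higher. By edgeR, 3 of the 7 were called, against 6.7% of all genes. With the mean log2 level of 8 macrophage markers as a term in the model, 2 remained called, Csf2rb (0.39, adjusted p = 0.0180) and Csf2rb2 (0.53, adjusted p = 0.0265). Csf2ra then stood at 0.19 (adjusted p = 0.297) and Csf1r at 0.06 (adjusted p = 0.773). The share of all genes called with this term is not given here, so the count of 2 has no background beside it.

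Among the ligands, Csf1 ran from 13672 to 18423 in R and from 12898 to 21186 in NR tumors. The log2 difference of Csf1 was 0.06 ± 0.07 (95% interval -0.08 to 0.20, adjusted p = 0.670). Il34 ran from 1547 to 2367 in R and from 1670 to 2362 in NR tumors. The log2 difference of Il34 was -0.06 ± 0.06 (95% interval -0.19 to 0.07, adjusted p = 0.63). For both ligands the interval excluded differences of the size seen for Csf2rb. For Csf2 the interval ran from -1.54 to 1.14 around -0.20 ± 0.68 (unadjusted p = 0.772), so a change of 2-fold in either direction was not detectable at this depth.

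**Figure D3:**
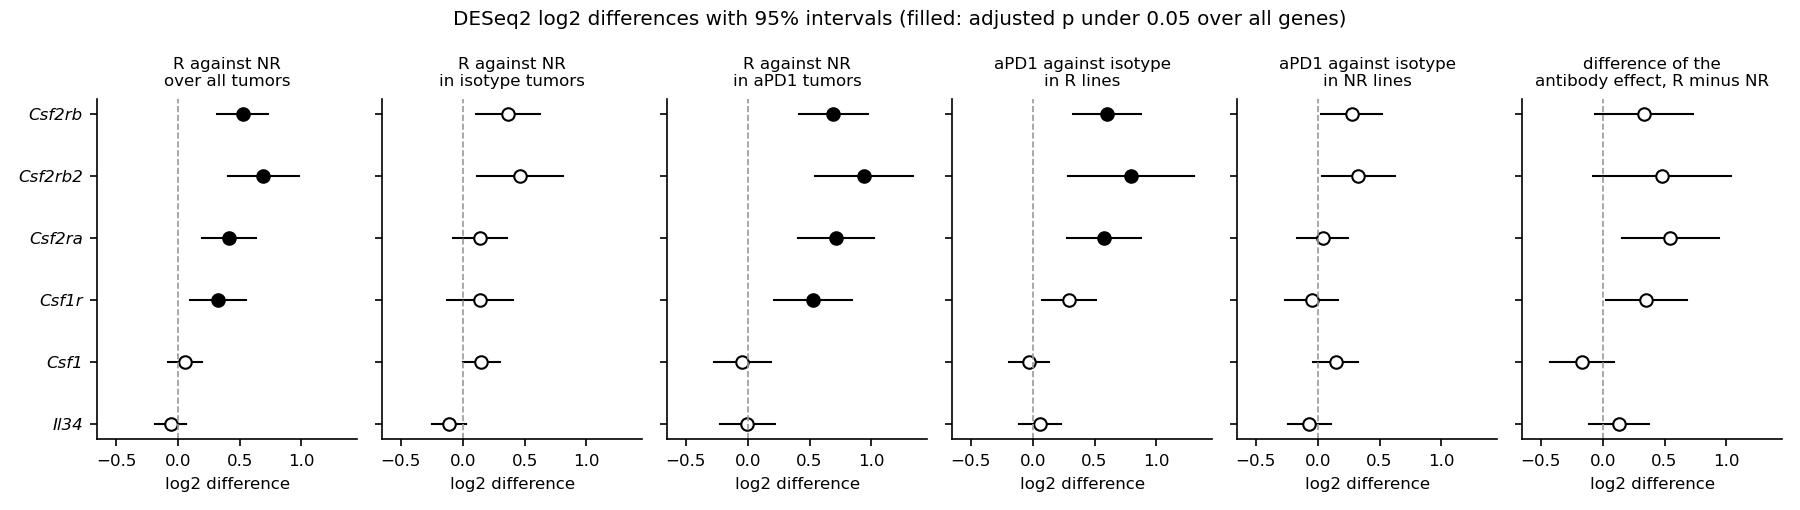
Log2 differences from DESeq2 with 95% intervals for 6 of the genes in 6 comparisons, with filled points where the adjusted p over all genes was under 0.05. Csf2 is left out for its low counts. The receptor genes lay to the right of 0 in the comparisons of host class over all tumors and under aPD1 and in the R lines with aPD1, and Csf1 and Il34 lay near 0.

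The comparison of host class was then made separately under each antibody. In isotype tumors no member was called, where 5.53% of all genes were called with DESeq2. Csf2rb was 1442 ± 269 in R (1154 to 1850, median 1440, n = 6) and 1113 ± 193 in NR isotype tumors (916 to 1478, median 1073, n = 6). Its log2 difference was 0.37 ± 0.13 (unadjusted p = 0.00529, adjusted p = 0.0721 with DESeq2 and 0.188 with edgeR). Csf2rb was called in 5 of the 18 fits that left out a tumor or a line, namely those without CC002F1 isotype tumor 2, CC075F1 isotype tumor 1 or CC080F1 isotype tumor 1 and those without the CC075F1 or CC080F1 line. Csf2rb2 differed by 0.46 ± 0.18 (unadjusted p = 0.00889, adjusted p = 0.0965 with DESeq2 and 0.237 with edgeR). Csf2ra and Csf1r each differed by 0.14 (adjusted p = 0.508 and 0.609 with DESeq2). Over all genes 3285 had an unadjusted p under 0.05.

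Under aPD1 all 4 receptor genes were higher in R than in NR tumors, where 7.93% of all genes were called and 5.94% were called higher. Csf2rb ranged from 1620 to 2717 (median 2193) in the 6 R tumors and from 1054 to 1600 (median 1253) in the 5 NR tumors, without overlap. Its log2 difference was 0.69 ± 0.14 (adjusted p = 0.000112 with DESeq2 and 0.0183 with edgeR). Csf2ra ranged from 1028 to 2179 (median 1422) in R and from 796 to 1003 (median 941) in NR tumors, again without overlap. On the log2 scale the difference was 0.71 ± 0.16 (adjusted p = 0.000268 with DESeq2 and 0.0222 with edgeR). How many of all genes lacked overlap in this comparison was not computed.

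Csf2rb2 ranged from 782 to 2165 (median 1505) in R and from 630 to 926 (median 686) in NR tumors. 5 of the 6 R tumors lay above every NR tumor, and the exception was a CC001F1 tumor. The log2 difference of Csf2rb2 was 0.94 ± 0.20 (adjusted p = 0.000181 with DESeq2 and 0.0266 with edgeR). Csf1r ranged from 9157 to 14653 (median 11668) in R and from 5246 to 9578 (median 9276) in NR tumors. Its log2 difference was 0.53 ± 0.16 (adjusted p = 0.0185 with DESeq2 and 0.101 with edgeR), and leaving out the CC002F1, CC036F1 or CC075F1 line ended the call, as did leaving out CC075F1 aPD1 tumor 1 or CC036F1 aPD1 tumor 1.

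By edgeR, 3 of the 7 genes were called under aPD1, against 2.25% of all genes. When line entered limma as a random effect, none of the 7 was called (adjusted p = 0.0582 for Csf2rb and 0.0719 for Csf2ra). With the macrophage marker term none was called either (Csf2rb at 0.46 and Csf1r at -0.05 on the log2 scale). Shares of all genes called in the limma fit and in the marker fit are not given here. The ligands Csf1 and Il34 overlapped between R and NR tumors under aPD1, with medians of 16819 and 16780 for Csf1 and of 1815 and 1771 for Il34.

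The second comparison was between aPD1 and isotype within each host class. In R lines both GM-CSF receptor genes, Csf2rb and Csf2ra, and the IL-3 receptor beta chain gene Csf2rb2 were higher with aPD1 by DESeq2, and none was called by edgeR. Csf2rb rose from a median of 1440 to 2193, and 5 of the 6 aPD1 tumors lay above every isotype tumor. The log2 difference of Csf2rb was 0.60 ± 0.14 (adjusted p = 0.00252 with DESeq2 and 0.0697 with edgeR). Csf2ra rose from a median of 922 (891 to 1266) to 1422, again with 5 of 6 aPD1 tumors above every isotype tumor. The log2 difference of Csf2ra was 0.57 ± 0.15 (adjusted p = 0.00784 with DESeq2 and 0.0837 with edgeR).

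Csf2rb2 rose from a median of 818 (591 to 1056) to 1505. Its log2 difference was 0.80 ± 0.26 (adjusted p = 0.0433 with DESeq2 and 0.0905 with edgeR), and 9 of the 15 fits that left out a tumor or a line lost the call. Csf1r had medians of 8806 under isotype and 11668 under aPD1, and a log2 difference of 0.29 ± 0.11 that was not called (adjusted p = 0.112 with DESeq2 and 0.265 with edgeR). Csf2 differed by 2.19 ± 0.93 on the log2 scale (unadjusted p = 0.0182 with DESeq2, no adjusted value given, and adjusted p = 0.442 with edgeR).

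In the R lines 3 of the 7 genes were thus called by DESeq2, where 5.26% of all genes were called and 4.85% were called higher. By edgeR 0% of all genes were called, and 2621 genes had an unadjusted p under 0.05. Leaving out the CC002F1 or the CC075F1 line brought the count of members called by DESeq2 to 0. With the macrophage marker term it was also 0, with Csf2rb at 0.27. The share of all genes called in that fit is not given here.

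Among NR tumors none of the 7 genes was called with aPD1 by DESeq2 or edgeR, where 0.0448% of all genes were called by DESeq2 and 1316 had an unadjusted p under 0.05. Csf2rb had medians of 1073 under isotype and 1253 under aPD1, with a log2 difference of 0.27 ± 0.13 (unadjusted p = 0.0296, adjusted p = 0.836). Csf2rb2 differed by 0.33 ± 0.15 (unadjusted p = 0.0298, adjusted p = 0.836). Csf2ra differed by 0.04 ± 0.11 and Csf1r by -0.05 ± 0.11. Leaving out the CC080F1 line, or either its aPD1 tumor or isotype tumor 1, brought Csf2rb into the called genes, with a difference of up to 0.45.

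The antibody effect itself was compared between R and NR lines as an interaction, and no member was called by DESeq2 or edgeR, where 0.0342% of all genes were called by DESeq2 and 1751 had an unadjusted p under 0.05. The largest value with usable counts was that of Csf2ra, at 0.55 ± 0.20 on the log2 scale (unadjusted p = 0.00623, adjusted p = 0.472). Csf1r stood at 0.35 ± 0.17 (unadjusted p = 0.0360, adjusted p = 0.712), Csf2rb2 at 0.48 ± 0.28 and Csf2rb at 0.33 ± 0.20. A larger rise of the receptor genes in R than in NR lines was therefore not shown. Without CC001F1 aPD1 tumor 1, or without the CC001F1 line, Csf2ra was called, with values of up to 0.74.

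Within lines, the mean of Csf2rb was higher with aPD1 in 3 of 3 R lines and in 2 of 3 NR lines. In CC075F1 it went from 1319 to 2370, in CC002F1 from 1277 to 2150, in CC036F1 from 1101 to 1593 and in CC079F1 from 961 to 1239, and in each of these lines both aPD1 tumors lay above both isotype tumors. In CC001F1 it went from 1729 to 2015 with overlap between the tumors, and in CC080F1 from 1276 to 1054, the latter a single tumor. That tumor had B cell markers (sum 729), and CC080F1 isotype tumor 2 had skeletal muscle transcripts (Ckm 763). The tumors of other lines with such transcripts are named above. Csf2rb2 and Csf2ra had the same 4 lines without overlap. The Csf2rb2 mean in CC075F1 went from 744 to 1802, the largest difference of these 3 genes in any line (1.28 on the log2 scale). Csf1r separated both aPD1 tumors from both isotype tumors upward only in CC002F1 (8806 to 11721) and CC079F1 (8743 to 9396). For none of these separations within a line was the share of all genes computed.

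**Figure D4:**
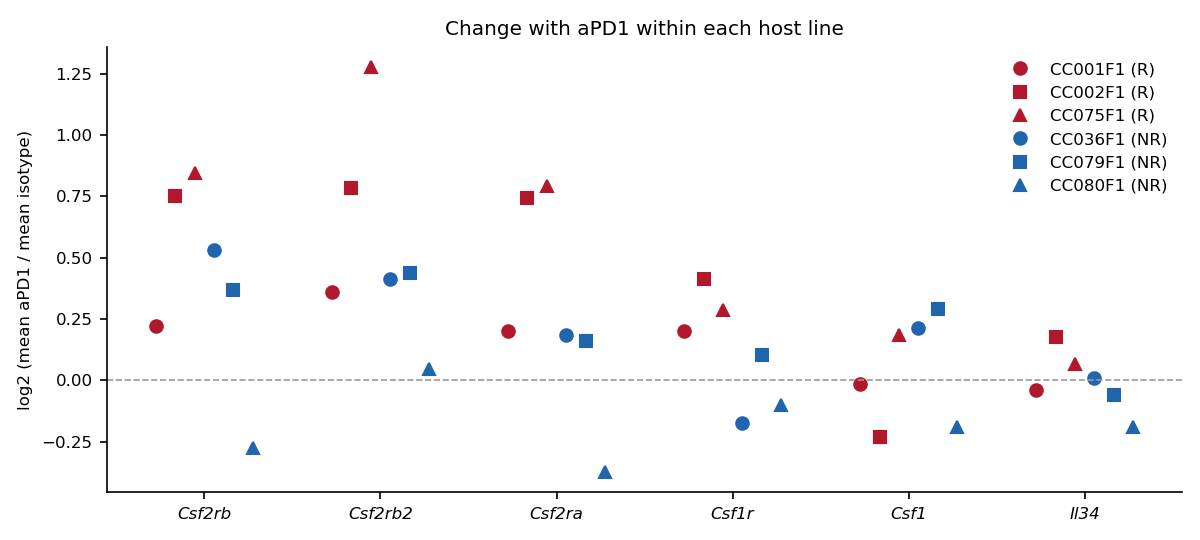
Log2 ratio of the mean normalized count with aPD1 to that with isotype in each host line, for 6 genes. Red symbols are R lines and blue symbols NR lines. For Csf2rb, Csf2rb2 and Csf2ra the CC002F1 and CC075F1 lines lay highest and CC080F1, with 1 aPD1 tumor, lowest.

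The lines themselves were then ordered by level. Csf2rb had line means of 1872 in CC001F1, 1845 in CC075F1, 1714 in CC002F1, 1347 in CC036F1, 1202 in CC080F1 and 1100 in CC079F1. Neighbours in this order overlapped in their tumors at every step. Csf2rb2 ran from 1273 in CC075F1 to 591 in CC079F1 and Csf2ra from 1406 in CC075F1 to 889 in CC079F1, also with overlap at every step. For these 3 genes every R line mean was above every NR line mean. A separation in this direction was seen for 14.8% of the genes with a mean of at least 100. Csf1, Csf2, Il34 and Csf1r had line means that overlapped between the classes.

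Csf1r had a different order. Its line means were 11296 in CC075F1, 10263 in CC002F1, 10038 in CC080F1, 10016 in CC001F1, 9069 in CC079F1 and 6301 in CC036F1. The 4 CC036F1 tumors had 8215 and 5154 under isotype and 6591 and 5246 under aPD1. All 4 lay below each tumor of the other 5 lines, whose lowest value was 8621. CC079F1 and CC036F1 were the only neighbours in the order without overlap. The ligand Csf1 was highest in CC036F1 (17671 ± 2591, n = 4) and lowest in CC080F1 (14330 ± 1347, n = 3), and Il34 was also highest in CC036F1 (2060 ± 254, n = 4), but for both the tumors of neighbouring lines overlapped.

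A test of any difference among the 6 lines called all 4 receptor genes by DESeq2, where 16% of all genes were called. The adjusted p was 5.70e-05 for Csf1r, 0.000486 for Csf2rb, 0.00191 for Csf2rb2 and 0.0410 for Csf2ra. By edgeR 3 were called, against 6.32% of all genes, with an adjusted p of 0.00523 for Csf1r, 0.0143 for Csf2rb, 0.0338 for Csf2rb2 and 0.111 for Csf2ra. In the 17 deep libraries alone only Csf1r was called, and the share of all genes called there is not given here. Among the 3 R lines none of the 7 genes was called, where 1.05% of all genes were called. Among the 3 NR lines only Csf1r was called by DESeq2 (adjusted p = 4.63e-05, where 9.46% of all genes were called) and by edgeR (adjusted p = 0.00375, where 4.42% were called). Without CC036F1 the test among lines gave an adjusted p of 0.608 for Csf1r.

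The receptor genes moved with leukocyte transcripts, and these values are given beside them. The 8 macrophage markers (Adgre1, Apoe, Lyz2, Cd68, Mrc1, C1qa, C1qb and Mertk) were detected in every tumor. Their summed normalized count was 66349 to 125576 in R isotype, 105599 to 174058 in R aPD1, 54995 to 113678 in NR isotype and 74598 to 100112 in NR aPD1 tumors. Of the 8, 4 were called higher in R over all tumors (Adgre1, Cd68, C1qa and C1qb, named after their values were seen), where 7.66% of all genes were called higher, and none was called lower. Mrc1 stood at -0.24 (unadjusted p = 0.0274, adjusted p = 0.125) and Mertk at -0.11 (adjusted p = 0.434), both named after their values were seen. The list median was 0.35 on the log2 scale where the median of all genes tested was -0.00042. The pan-leukocyte gene Ptprc was 5923 ± 337 in R isotype, 8986 ± 3059 in R aPD1, 4088 ± 1257 in NR isotype and 4387 ± 1073 in NR aPD1 tumors, and was higher in R over all tumors (0.77 ± 0.16, adjusted p = 8.42e-05).

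Set per summed macrophage markers, the means of Csf1r in R and NR tumors differed by 0.03 on the log2 scale under isotype and by -0.0019 under aPD1. This sum is weighted to the most abundant markers, Lyz2 (mean 37797) and Apoe (mean 22035), neither of which was called over all tumors. It differs from the mean log2 level used as a term in the model. The log2 ratio of Csf1r to the summed markers was -3.37 ± 0.36 in R and -3.40 ± 0.08 in NR isotype tumors, and -3.43 ± 0.15 in R and -3.43 ± 0.29 in NR aPD1 tumors. For Csf2rb the same ratio was higher in R by 0.24 under isotype and by 0.14 under aPD1, and for Csf2rb2 by 0.34 under each, each less than the SD of the NR group. Set per Ptprc, the means of all 4 receptor genes were lower in R than in NR tumors under both antibodies, by 0.22 and 0.31 for Csf2rb and by 0.42 and 0.45 for Csf1r. For Csf2rb2 they were lower by 0.12 and 0.11. The differences of Csf2rb and Csf2rb2, and of Csf2ra under aPD1, were less than the SD of the NR group. Those of Csf1r, and of Csf2ra under isotype, were greater than it.

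Across the 23 tumors, which share the groups and lines above, the log2 level of Csf1r had a Pearson r of 0.80 with that of the macrophage list, 0.83 with the fibroblast list (Col1a1, Bgn and Postn) and 0.66 with the T and NK cell list (Cd3e, Cd8a, Nkg7, Ifng and Ncr1). Csf2rb had an r of 0.58, 0.38 and 0.80 with the same lists. The T and NK cell markers were detected in every tumor, with a summed normalized count of 544 to 1392 in R isotype, 709 to 3005 in R aPD1, 213 to 1139 in NR isotype and 292 to 714 in NR aPD1 tumors. Of these 5 markers, 4 were called higher in R over all tumors (list median 1.48), where 7.66% of all genes were called higher. Under aPD1 5 were called higher in R, where 5.94% of all genes were. With aPD1 in R lines 1 was called higher, where 4.85% of all genes were.

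Markers of type 1 conventional dendritic cells (Xcr1, Clec9a and Irf8) were detected in every tumor, and their correlation with the receptor genes was not computed. Their summed normalized count was 2090 to 2756 in R isotype, 2399 to 5016 in R aPD1, 1401 to 2598 in NR isotype and 1501 to 2355 in NR aPD1 tumors. Xcr1, a chemokine receptor (1.44 ± 0.40, adjusted p = 0.00546), and Irf8, a transcription factor (0.70 ± 0.14, adjusted p = 6.76e-05), were higher in R over all tumors, and both were also higher under aPD1 and with aPD1 in R lines, whereas Clec9a was not called in any of these comparisons. Of the endothelial markers Pecam1 was higher in R over all tumors (0.52 ± 0.17, adjusted p = 0.0201) and Cdh5 was not called. Among 3 markers of type 2 conventional dendritic cells none was called over all tumors (list median -0.25). Among 4 monocyte markers 1 was called higher (list median 0.41), where 7.66% of all genes were called higher. Xcr1, Irf8 and Pecam1 were named after their values were seen. The part of monocytes and of T and NK, dendritic and endothelial cells in the results of the receptor genes was not tested.

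Granulocyte and eosinophil transcripts, from cells that also use these receptors, were scarce. S100a8 was at 0 in 3 tumors, S100a9 in 5 and Retnlg in 15, with highest counts of 65, 126 and 8. Gsr, which many cell types express, was detected in every tumor with a highest count of 6917. Of these 4 granulocyte markers none was called in R against NR over all tumors. Under aPD1 only S100a9, at a mean of 13.7 and named after its value was seen, was called. It was lower in R (-2.39 ± 0.62, adjusted p = 0.00405 with DESeq2), where 7.93% of all genes were called. Siglecf, Prg2, Mcpt8 and Ms4a2 had highest counts of 4 to 30. Cpa3, a mast cell protease, was detected in every tumor, with a highest count of 269.

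**Figure D5:**
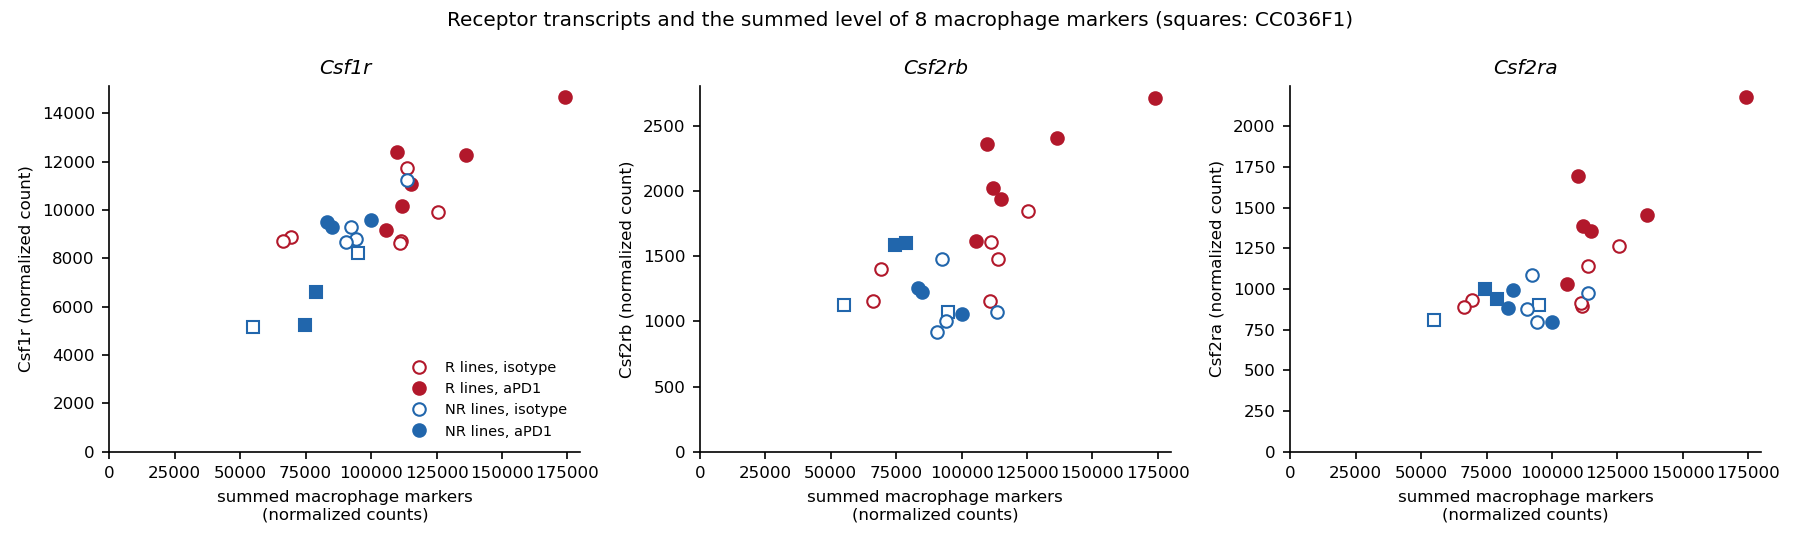
Normalized count of Csf1r, Csf2rb and Csf2ra in each tumor (vertical axes) against the summed normalized count of 8 macrophage markers (horizontal axes), with red for R, blue for NR, open for isotype and filled for aPD1. The CC036F1 tumors, drawn as squares, were the lowest in Csf1r and had marker sums of 54995 to 95002, and the tumor highest in all 3 genes was also the tumor with the highest marker sum, 174058.

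The members resembled each other to different degrees across the 23 tumors. Csf2rb and Csf2rb2 had an r of 0.94 in log2 level, Csf2rb and Csf2ra 0.90, Csf2ra and Csf1r 0.67, and Csf2rb and Csf1r 0.47. The beta chain genes share coding sequence, so part of their resemblance can come from how shared reads were divided. With the counts of both summed into 1 row, 3 of 6 genes were called between the classes over all tumors and 2 of 6 with aPD1 in R lines. Shares of all genes called in those fits are not given here. The ligands Csf1 and Il34 had an r of 0.01, and Csf1 and its receptor Csf1r had an r of -0.28.

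Of the 12049 genes with a mean of at least 100, the 5 most like Csf2rb by Pearson r of log2 level over the 23 tumors included Itgb2 (0.94), Igtp (0.94), Fxyd5 (0.93) and Irgm1 (0.93). Itgb2 is the leukocyte beta 2 integrin, and Igtp and Irgm1 are interferon-inducible GTPases. The 5 most like Csf1r were Tlr1 (0.95), Arhgef6 (0.94), Tmsb4x (0.94), Fgd2 (0.94) and Tnfrsf11a (0.94). No gene was on both lists.

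Ratios between members were tested with exact two-sided permutation tests, 16 in all, and none passed after adjustment over the 16. The log2 ratio of Csf2rb to Csf2rb2, in rounded counts, was 0.82 ± 0.21 in R and 0.92 ± 0.28 in NR isotype tumors (n = 6 each, exact permutation p = 0.489). Under aPD1 the log2 ratio of Csf2rb to Csf2rb2 was 0.62 ± 0.24 in R (n = 6) and 0.83 ± 0.06 in NR tumors (n = 5, exact permutation p = 0.108, adjusted 0.346). The ratio of Csf2rb to Csf2ra was higher by 0.23 in R than in NR isotype tumors (exact permutation p = 0.0455, adjusted 0.242). In R lines the ratio of Csf2rb to Csf1r was higher by 0.30 with aPD1, the permutations being made within lines (exact permutation p = 0.0278, adjusted 0.222). The ratio of Csf1 to Il34 was higher by 0.27 in R than in NR isotype tumors (exact permutation p = 0.0217, adjusted 0.222).

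Among the other genes that share the beta chain, and the G-CSF system, only the G-CSF receptor was called between the classes. Csf3r, expressed by granulocytes and monocytes, was higher in R over all tumors by 0.95 ± 0.22 on the log2 scale (adjusted p = 0.000424) and with aPD1 in R lines by 1.03 ± 0.32 (adjusted p = 0.0345). Il3ra, the IL-3 receptor alpha chain, differed by 0.37 ± 0.14 (adjusted p = 0.0508). Il5, an eosinophil cytokine, had a mean of 8.46 and differed by -0.05 ± 0.50. Il3, Il5ra and Csf3 had means of 0.36, 3.32 and 1.59 and no adjusted p.

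The genes downstream of the receptors were described as lists, each against 7.66% of all genes called higher and 6.78% called lower in R over all tumors. Of 14 receptor-proximal signaling genes 6 were higher and 1 lower (list median 0.11). Among them, Inpp5d, the SHIP1 phosphatase, was higher (0.57 ± 0.12, adjusted p = 0.000105), and the adaptor Shc1 was lower by 0.09 (adjusted p = 0.0199). Of 8 STAT5 targets 2 were higher and 1 lower (list median 0.27). Socs3 (0.39 ± 0.12, adjusted p = 0.0165) and Socs1 (0.36 ± 0.13, adjusted p = 0.0386), both feedback inhibitors of cytokine signaling, were higher, and Osm, which encodes the cytokine oncostatin M, differed by -0.56 ± 0.20 (adjusted p = 0.0455).

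Of 7 myeloid genes induced by GM-CSF, 2 were higher and none lower (list median 0.41). These were Irf4, a transcription factor (0.86 ± 0.24, adjusted p = 0.00541), and Itgax, the CD11c integrin (0.75 ± 0.18, adjusted p = 0.00102), while Ccl17, Ccl22, Pparg, Mmp12 and Cd209a were not called. Of 7 lineage genes of cells with the M-CSF receptor, 4 were higher and none lower (list median 0.37), including the adaptor Tyrobp (0.57 ± 0.13, adjusted p = 0.000192) and the transcription factor Spi1 (0.57 ± 0.11, adjusted p = 3.70e-05). The other receptors reported for IL-34 showed no call, with Sdc1 at -0.04 ± 0.04 and Ptprz1 at a mean of 1.11.

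With aPD1 in R lines, where 4.85% of all genes were called higher by DESeq2 and 0% were called by edgeR, 3 of 14 receptor-proximal genes, 3 of 8 STAT5 targets, 1 of 7 GM-CSF-induced genes and 4 of 7 lineage genes were called higher by DESeq2, and none was called lower. Socs3 differed by 0.81 ± 0.15 (adjusted p = 2.60e-05) and Itgax by 0.57 ± 0.16 (adjusted p = 0.0103). In NR lines none of the genes of these 4 lists was called by DESeq2, where 0.0448% of all genes were called.

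The neighbourhood of the beta chain genes held other leukocyte genes. Of 11 genes that start within 250 kb and had a mean of at least 10, 4 were higher and 1 lower in R over all tumors, where 7.66% of all genes were called higher and 6.78% lower. Il2rb, the IL-2 receptor beta chain (0.93 ± 0.23, adjusted p = 0.00118), Rac2, a hematopoietic GTPase (0.54 ± 0.12, adjusted p = 0.000493), Cyth4 (0.47 ± 0.12, adjusted p = 0.00118) and Ncf4, a subunit of the phagocyte oxidase (0.32 ± 0.12, adjusted p = 0.0467), were higher. C1qtnf6 was lower by 0.50 ± 0.12 (adjusted p = 0.00117).

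RefSeq promoter windows, the 250 bases before the annotated start on GRCm38, were given for 4 of the 7 genes: Csf1, Csf2, Csf2rb2 and Csf2ra. Both strands were searched for GAGGAA (a PU.1 core with its flank), TTCNNNGAA (a STAT element), GAAANNGAA (an interferon-stimulated response element) and TGACTCA (AP-1). The window of Csf2rb2, shown because this gene had the largest difference between the classes, lies at chr15:78305722-78305971 on the minus strand and had a GAGGAA match on the opposite strand 167 bases before the start and a TTCNNNGAA match 15 bases before it, both in capitals.
Csf2rb2, promoter window: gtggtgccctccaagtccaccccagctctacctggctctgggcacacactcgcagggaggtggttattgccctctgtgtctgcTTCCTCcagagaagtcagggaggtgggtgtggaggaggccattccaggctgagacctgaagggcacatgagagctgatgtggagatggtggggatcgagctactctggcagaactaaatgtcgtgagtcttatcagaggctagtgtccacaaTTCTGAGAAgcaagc

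The Csf2ra window had GAGGAA at 14 and at 8 bases before the start, the Csf2 window had 1 GAAANNGAA match and the Csf1 window had none of the motifs. GAGGAA occurred in 23.3% of all 32851 windows of this length, TTCNNNGAA in 7.02%, GAAANNGAA in 7.13% and TGACTCA in 4.46%. A match is a description of letters and was not tested for binding.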

How the data were processed

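The authors deposited 1 table of expected counts per gene for all 23 tumors, which were not scaled for depth and are not whole in 16.95% of values. The study made poly(A) libraries, sequenced them as paired 100-base reads, mapped them with bowtie 1.2.3 to founder strain transcriptomes on GRCm38 and estimated total counts per gene with gbrs, which divides reads that fit several genes or alleles. The division affects Csf2rb and Csf2rb2, whose values are uncertain to that extent.

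Expected counts were rounded. The 188 rows without a gene name, holding 0.0993% of counts, were not removed before the fits. Genes with a summed count of at least 5 were tested in DESeq2 1.42.0 (Wald or likelihood ratio test, R 4.3.3) on the tumors of each comparison, with line as a term when antibodies were compared, and with Benjamini-Hochberg adjustment over all genes and a threshold of 0.05. The study states DESeq2 with default options, whereas the terms and the separate fits were chosen here. A called gene is one past that threshold. Rises and falls of genes are stated for called genes. Alternatives were edgeR 4.0.16 (quasi-likelihood test), limma 3.58.1 with line as a random effect, other scaling and filters, terms for depth, replicate number and macrophage level, and leaving out tumors or lines. Sample labels give line, antibody and replicate, while R and NR come from the study's text. Tumors of a line were treated as independent, although line is nested in class. Correlations used log2(normalized count + 1). Ratios between members used log2 of rounded, unscaled counts with 0.5 added to each, and ratios to markers used normalized counts with 0.5 added to the member.

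Both tools were tested on simulated data with known answers. The error of the fold changes was taken as a median over rises and falls together. An error in their size could therefore cancel, and bias in size was not tested. The share of false calls among called genes was above the nominal threshold in all 9 comparisons with DESeq2 and in 6 of 9 with edgeR. It was above double the threshold in all 9 with DESeq2 and in 3 of 9 with edgeR. The adjusted p-values therefore overstate certainty, and edgeR values are given beside the receptor genes that DESeq2 called.

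The 7 genes, the lists and the tests were chosen with earlier results of these data known. Besides the 7, the text names from each pathway list up to 2 called genes with the largest positive and 2 with the largest negative difference between R and NR over all tumors, every beta common family gene, called neighbours, and the 5 genes most like Csf2rb and Csf1r. Some genes that this rule selects are not reported here. Coding sequences come from GENCODE vM21 transcripts and promoter windows from RefSeq on GRCm38. Same-numbered tumors did not deviate together in all lines (correlations of -0.20 to 0.37 over 12055 genes), so numbers were not used as pairs.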

Additional observations from a re-analysis of the deposited data

Results flagged for a closer look

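In 2 of 63 sets of a gene and a group of 4 to 6 tumors, 1 tumor lay farther from the others than Dixon's 95% limit allows, and chance flags about 1 set in 20. Il34 was 2367 normalized counts in CC075F1 aPD1 tumor 2 among the 6 R aPD1 tumors, whose next value was 1918 and lowest 1673. Csf2 was 3.97 normalized counts in CC079F1 isotype tumor 2, from 2 reads, where the other 3 tumors of CC079F1 were at 0.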

How the results depend on the processing

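Of 1980 recomputed differences and line tests of the 7 members, 1843 kept their direction and their side of the threshold, 77 lost a call, 19 gained one and 41 changed sign. The cause was not tested for any of them. Shares of all genes called in these alternative fits are given only for some by edgeR. With the macrophage marker term the number of members called was 2 in R against NR over all tumors, 0 in R against NR under aPD1 (Csf1r at -0.049) and 0 with aPD1 in R lines. It was 0 under aPD1 with line as a random effect and 0 with aPD1 in R lines by edgeR. For any difference among the 6 lines it fell to 1 with the 17 deep libraries and to 2 without the tumors with B cell markers, which, like leaving out tumors with muscle transcripts, was an alternative chosen after seeing the data. In R against NR over all tumors Csf2 reversed to 0.094 with line as a random effect and to 0.22 with counts summed per line. With aPD1 in NR lines Csf1r reversed to 0.13 in the deep libraries and to 0.034 with a depth term, and Csf2 reversed to 0.11 and Il34 to 0.016 without the tumors with B cell markers. Under aPD1 the ligand differences between R and NR lay near 0 and reversed to 0.073 for Csf1 and 0.21 for Il34 with the macrophage marker term, and to 0.063 for Il34 without the tumors with muscle transcripts. With aPD1 in R lines Csf1 reversed to 0.026 with the macrophage marker term and to 0.014 without the tumors with B cell markers, and Il34 to -0.019 in the deep libraries. Replicate numbers as a block, which do not pair the tumors, ended the call of Csf2rb2 with aPD1 in R lines (0.80, adjusted p = 0.0734) and changed no other call of a member. When each tumor or line was left out in turn, the number of members called ran from 3 to 4 over all tumors, 0 to 2 in isotype and 3 to 4 in aPD1 tumors. It ran from 0 to 4 with aPD1 in R lines, 0 to 2 in NR lines, 0 to 1 for the interaction, 1 to 4 among 6 lines (1 without CC036F1 or CC079F1), 0 to 0 among R lines and 1 to 2 among NR lines. The number of ratios passing ran from 0 to 1 (1 without CC075F1 isotype tumor 2). Over the same fits Csf2 ran from -0.74 to 0.83 and Il34 from -0.11 to 0.0043 in R against NR over all tumors (both highest without CC036F1), and Csf1r from -0.011 to 0.29 in isotype tumors. Under aPD1 Csf1 ran from -0.13 to 0.072 and Il34 from -0.074 to 0.095 in R against NR, and with aPD1 in R lines Csf1 ran from -0.13 to 0.075 and Il34 from -0.010 to 0.12. With aPD1 in NR lines Csf2ra ran from -0.057 to 0.18 and Csf1r from -0.14 to 0.074. The counts of Csf2, at most 26, limit every statement about it.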
